A study of Caenorhabditis elegans with 8 samples.

Results

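Genes of the germline and of oogenesis were followed here as a set of 38 of the 46778 genes counted in the series. The members were chosen by name for their known roles, with earlier results of these data known. They comprised 9 genes of germ granules and small RNA pathways, 7 genes of germline RNA control and proliferation, 12 meiosis genes, 3 germline chromatin genes and 7 oocyte genes. Each of the 38 symbols matched a single WormBase gene, and all 38 passed the filter on low counts in every comparison.

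RNA was taken from whole Caenorhabditis elegans hermaphrodite cultures harvested at the fourth larval stage (L4), and each of the 8 strains was sequenced in 2 biological replicates, giving 16 libraries. The study asked how the splicing regulator MBL-1/Muscleblind and the transcription factor MEC-3 act in touch receptor neurons, so the germline was not its subject. The strains were mec-7(u278) mbl-1(tm1563), mec-7(u278), mbl-1(tm1563), the wild type, mbl-1(tm1563); mec-3(unk206), mec-3(syb8382), mec-3(u184) and mec-3(unk206). Every strain, the wild type included, carried a mec-17p::RFP transgene that marks touch receptor neurons. That transgene was uIs134 in mec-3(syb8382) and mec-3(u184) and uIs115 in the other strains, so allele and transgene insertion cannot be told apart where either of these alleles is compared with mec-3(unk206). The tm1563 allele deletes an exon that all mbl-1 isoforms use and shifts the reading frame. The u278 allele encodes a neomorphic β-tubulin. The u184 allele is a mec-3 null, syb8382 cannot make the long mec-3a isoform and unk206 makes mec-3a alone.

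The libraries held between 22296336 and 23180583 reads assigned to genes. In the 4 strains without a mec-3 allele the reads fell on both strands alike (50.8% to 51.3% on the annotated strand), whereas in the mec-3 strains 97.7% to 98.4% lay on that strand, so the kind of library cannot be told apart from the presence of a mec-3 allele. Libraries of a strain also differed far more in the unstranded strains. The chi-square per degree of freedom between the replicates was 94.2 to 228 there and 7.08 to 17 in the mec-3 strains. mec-3 itself was at 0.135 and 0.134 CPM, a gene's count scaled to a common library size, in mec-3(u184), and at 0.503 to 3.66 CPM in the other strains. Whole-gene counts of mbl-1 cannot check the loss of a single exon.

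In a hermaphrodite gonad, germ cells proliferate at the distal end under the Notch receptor GLP-1, enter meiosis as they move proximally, become sperm during L4 and then switch to making oocytes. Germ granules on the nuclear envelope concentrate RNA helicases, scaffold proteins and the Argonautes of small RNA pathways, while repressors such as GLD-1 and the FBF proteins keep germline mRNAs silent until they are needed. Growing oocytes take up yolk and store the mRNAs and the eggshell proteins that the embryo will use.

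Progress through L4 was read from the genes of the major sperm proteins, which spermatocytes make in bulk. The msp score of a library was the mean over 31 msp genes of log2(CPM + 0.5). It was 6.83 and 6.22 in mec-7(u278) mbl-1(tm1563), 6.07 and 4.40 in mec-7(u278), 4.99 and −0.17 in mbl-1(tm1563) and 2.52 and 4.35 in the wild type. Among the mec-3 strains it was 6.24 and 6.27 in mbl-1(tm1563); mec-3(unk206), 6.82 and 6.78 in mec-3(syb8382), 6.35 and 6.39 in mec-3(u184) and 6.45 and 6.48 in mec-3(unk206). Replicate 2 of mbl-1(tm1563) stood apart from all other libraries. Cultures of a strain differed in this score by up to 5.16 in the unstranded strains but by no more than 0.04 in the mec-3 strains. Multimapping reads were left out, so the score rests on the uniquely mapped reads of the msp genes. The 0.5 added to CPM compresses the score at low levels, as in replicate 2 of mbl-1(tm1563).

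Levels of the members were compared with each other per length, as the mean CPM over 16 libraries per kilobase of exon. The medians of the groups were 77.9 for the oocyte genes, 59.1 for the germ granule and small RNA genes, 21.7 for the RNA control genes, 15.2 for the meiosis genes and 12.3 for the chromatin genes. On this scale perm-2, which codes for a protein of the eggshell's vitelline layer, led the set at 538. It was followed at 222 by gld-1, a translational repressor that promotes meiotic entry and oogenesis. The pairing-center protein gene zim-2 was at 7.87, the lowest of the 38. Reads shared by near-identical copies were dropped in the counting, so the levels of paralogs such as fbf-1 and fbf-2 are uncertain. For 10 members (deps-1, prg-1, gld-2, glp-1, fbf-1, nos-3, him-3, syp-3, egg-1 and perm-2) exons overlap a gene on the opposite strand. Reads on the shared bases cannot be assigned to a single gene in the unstranded counts, which were used for all libraries. A further 4 members (csr-1, syp-1, zim-1 and zim-2) overlap a gene on their own strand.

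Oocyte genes varied most between the libraries. The ratio of the highest library to the lowest was 94.9 to 718 for the 7 oocyte genes, 13.7 to 47.4 for the 12 meiosis genes, 2.65 to 81.6 for the 9 germ granule genes, 1.62 to 64.8 for the 7 RNA control genes and 1.62 to 5.27 for the 3 chromatin genes. All 38 members were lowest in replicate 2 of mbl-1(tm1563). The highest library was one of mbl-1(tm1563); mec-3(unk206) for 23 members, of mec-3(syb8382) for 8 and, for 7, one of mec-7(u278) mbl-1(tm1563). In these RNA samples from whole animals, fewer germ cells and less RNA per germ cell cannot be told apart.

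The yolk receptor gene rme-2 (WBcel235 chromosome IV, 5470026 to 5473174) shows the pattern. Its level was 255 and 231 CPM in mec-7(u278) mbl-1(tm1563), 97.4 and 48.6 CPM in mec-7(u278), 60.6 and 1.44 CPM in mbl-1(tm1563) and 7.69 and 38.2 CPM in the wild type. In the mec-3 strains it was 427 and 475 CPM with mbl-1(tm1563); mec-3(unk206), 408 and 397 CPM with mec-3(syb8382), 217 and 230.5 CPM with mec-3(u184) and 247 and 192 CPM with mec-3(unk206). The cultures of mbl-1(tm1563) lay on either side of both wild-type values. puf-5, which codes for a Pumilio-family repressor of maternal mRNAs (chromosome II, 8575541 to 8577787), was at 55.1 and 0.99 CPM in mbl-1(tm1563) and at 4.39 and 34.0 CPM in the wild type. At the other end of the set, mes-3, a subunit of the repressive chromatin complex that also holds MES-2, was between 42.6 and 69.2 CPM in all 16 libraries. Its highest library exceeded its lowest 1.62-fold.

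**Figure D1:**
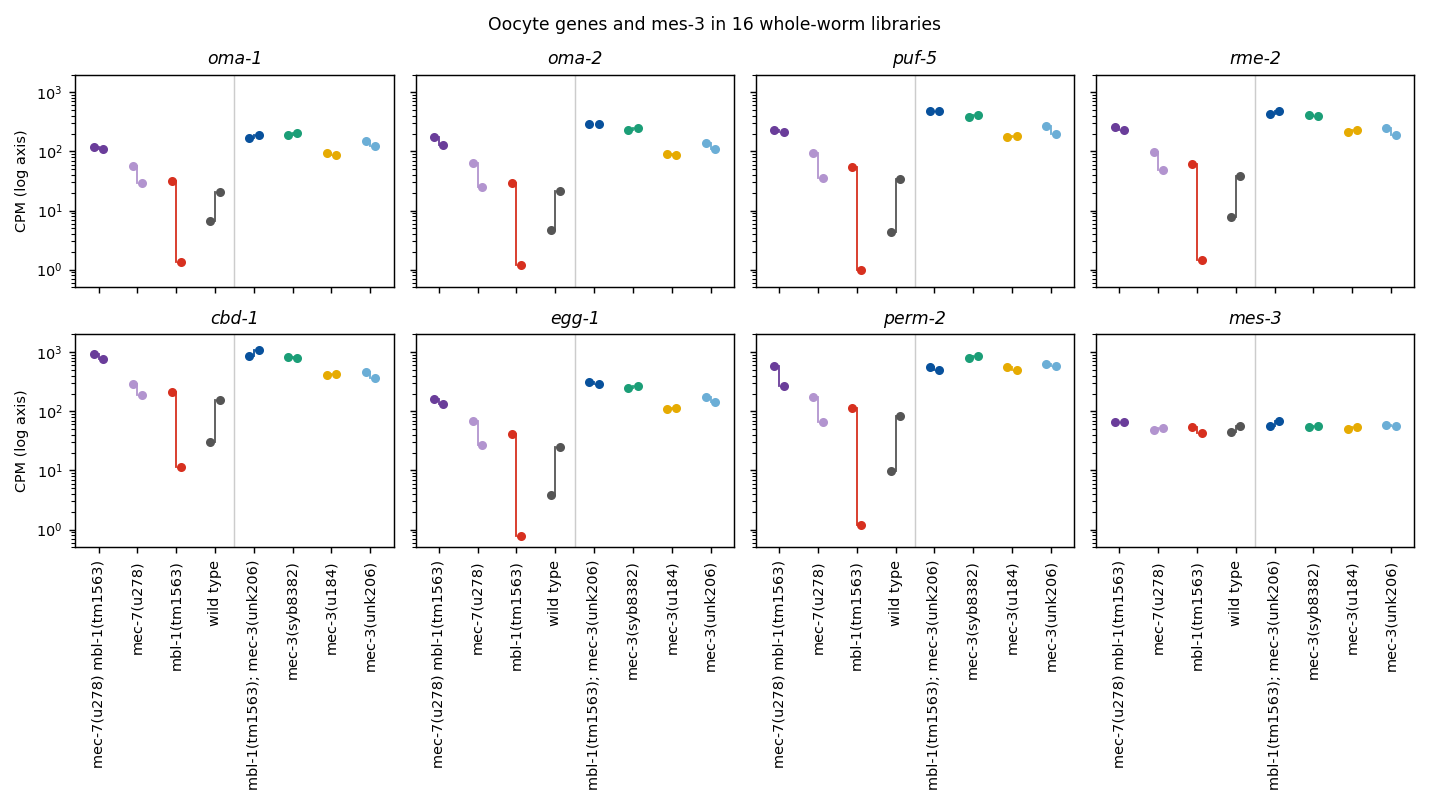
CPM on a log axis for the 7 oocyte genes and mes-3, by strain, with 1 point per library and a line joining the 2 libraries of a strain; the grey line divides unstranded (left) from strand-specific strains. All 7 oocyte genes dip in replicate 2 of mbl-1(tm1563) and are higher in each mec-3 strain than in the wild type, while mes-3 stays between 42.6 and 69.2 CPM.

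Taken strain by strain, the median level of the 7 oocyte genes was 427 and 475 CPM in mbl-1(tm1563); mec-3(unk206), 376 and 397 CPM in mec-3(syb8382), 177 and 183 CPM in mec-3(u184) and 247 and 192 CPM in mec-3(unk206). It was 232 and 211 CPM in mec-7(u278) mbl-1(tm1563), 94.6 and 36.2 CPM in mec-7(u278), 55.1 and 1.19 CPM in mbl-1(tm1563) and 6.61 and 34.0 CPM in the wild type. In that order mec-7(u278) mbl-1(tm1563) overlapped with mec-3(unk206), as did mec-7(u278) with mbl-1(tm1563) and mbl-1(tm1563) with the wild type. Between the libraries with a score above 6.2 the msp score did not order the oocyte genes. At scores of 6.24 and 6.27, mbl-1(tm1563); mec-3(unk206) had a median of 427 and 475 CPM, and at 6.35 and 6.39 mec-3(u184) had 177 and 183 CPM.

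**Figure D2:**
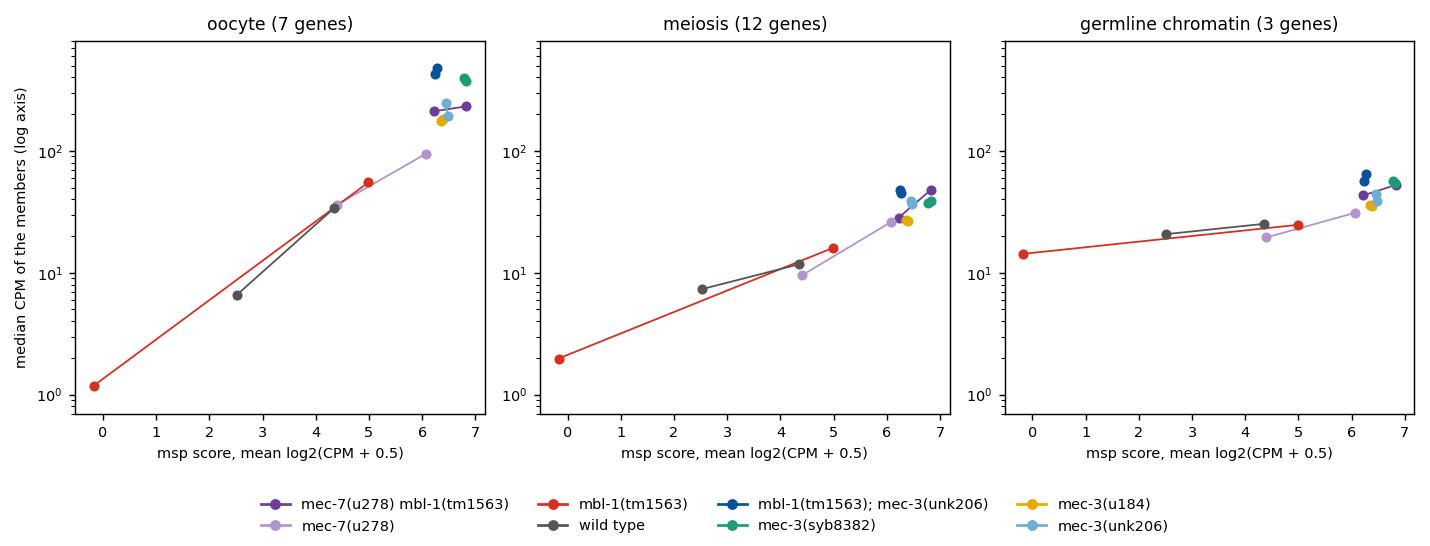
Median CPM (log axis) of the oocyte, meiosis and germline chromatin members in each library against its msp score (mean log2(CPM + 0.5) of 31 msp genes); colours are strains and lines join the 2 libraries of a strain. Oocyte medians climb from 1.19 CPM at a score of −0.17 to 475 CPM, meiosis medians from 1.98 to 48.0 CPM and chromatin medians from 14.3 to 64.1 CPM.

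Within each of the 4 unstranded strains, 35 or more of the 38 members were higher in the culture with the higher msp score. A slope on the score was fitted in all 16 libraries with strain as a covariate, so that it uses the difference between the replicates of a strain. Slopes were positive and past an adjusted p of 0.05 (edgeR quasi-likelihood test, Benjamini-Hochberg over 16045 genes) for 35 of the 38 members, where 18.7% of all genes tested were called with a positive slope. No member had a negative slope past that threshold. The median slope was 0.59 on the log2 scale per unit of score over the 38 members and 0.02 over all genes tested.

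Oocyte genes had the steepest slopes, with 7 of 7 called and a median of 1.0. perm-2 was at 115 and 1.19 CPM in mbl-1(tm1563), at 172 and 65.0 CPM in mec-7(u278) and at 9.81 and 85.0 CPM in the wild type. Its slope was 1.28 ± 0.09 (SE, adjusted p = 2.47e-06), or 2.43-fold per unit of score. puf-5 had a slope of 1.12 ± 0.09 and egg-1, which codes for a receptor-like protein of the oocyte surface needed for fertilization, one of 1.10 ± 0.07. For rme-2 the slope was 1.0 ± 0.08 (adjusted p = 4.51e-06). The oocyte maturation factors oma-2 and oma-1 followed with 0.90 ± 0.06 and 0.83 ± 0.06, and cbd-1, a chitin-binding protein of the vitelline layer, had 0.81 ± 0.08.

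Germ granule and small RNA genes were called in 9 of 9 cases, with a median slope of 0.61. glh-2, which codes for a Vasa-family helicase, was at 28.9 and 1.485 CPM in mbl-1(tm1563) and had a slope of 0.82 ± 0.05 (adjusted p = 1.13e-06). pgl-1, which codes for a granule scaffold protein, had a slope of 0.62 ± 0.04. csr-1, an Argonaute that targets expressed germline genes, was at 316 and 139.5 CPM in mbl-1(tm1563) and had the lowest slope of this group, 0.22 ± 0.04 (adjusted p = 0.00358). Of the remaining members, the helicase genes glh-4 and glh-1, the P-granule gene deps-1, the scaffold gene pgl-3 and the Argonaute genes wago-1 and prg-1 lay between 0.39 and 0.67.

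Meiosis genes were called in 12 of 12 cases, with a median of 0.57. Their slopes were between 0.33 for him-8, which pairs the X chromosomes, and 0.71 for zim-2, which pairs an autosome. Genes of the synaptonemal complex that joins homologs had slopes of 0.68 ± 0.06 (syp-4), 0.62 ± 0.06 (syp-1), 0.54 ± 0.11 (syp-2) and 0.52 ± 0.11 (syp-3). The chromosome axis genes him-3, htp-1 and htp-3 and the meiotic cohesin gene rec-8 lay between 0.49 and 0.60.

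RNA control genes split. gld-1 (0.76 ± 0.04) and the Bicaudal-C homolog gld-3 (0.67 ± 0.04) were the steepest of the 7. glp-1, which codes for the Notch receptor, was at 35.1 and 12.6 CPM in mbl-1(tm1563) and had a slope of 0.32 ± 0.04 (adjusted p = 0.00024). The Pumilio genes fbf-1 and fbf-2 had 0.44 and 0.38 and the Nanos gene nos-3 had 0.22. gld-2, a cytoplasmic poly(A) polymerase, was not called (0.12 ± 0.04, adjusted p = 0.0929). Nor were the chromatin genes mes-2 (0.11 ± 0.04, adjusted p = 0.109) and mes-3 (0.06 ± 0.04, adjusted p = 0.375), whereas mes-4, a histone H3K36 methyltransferase that carries germline memory, was (0.20 ± 0.04, adjusted p = 0.00229).

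**Figure D3:**
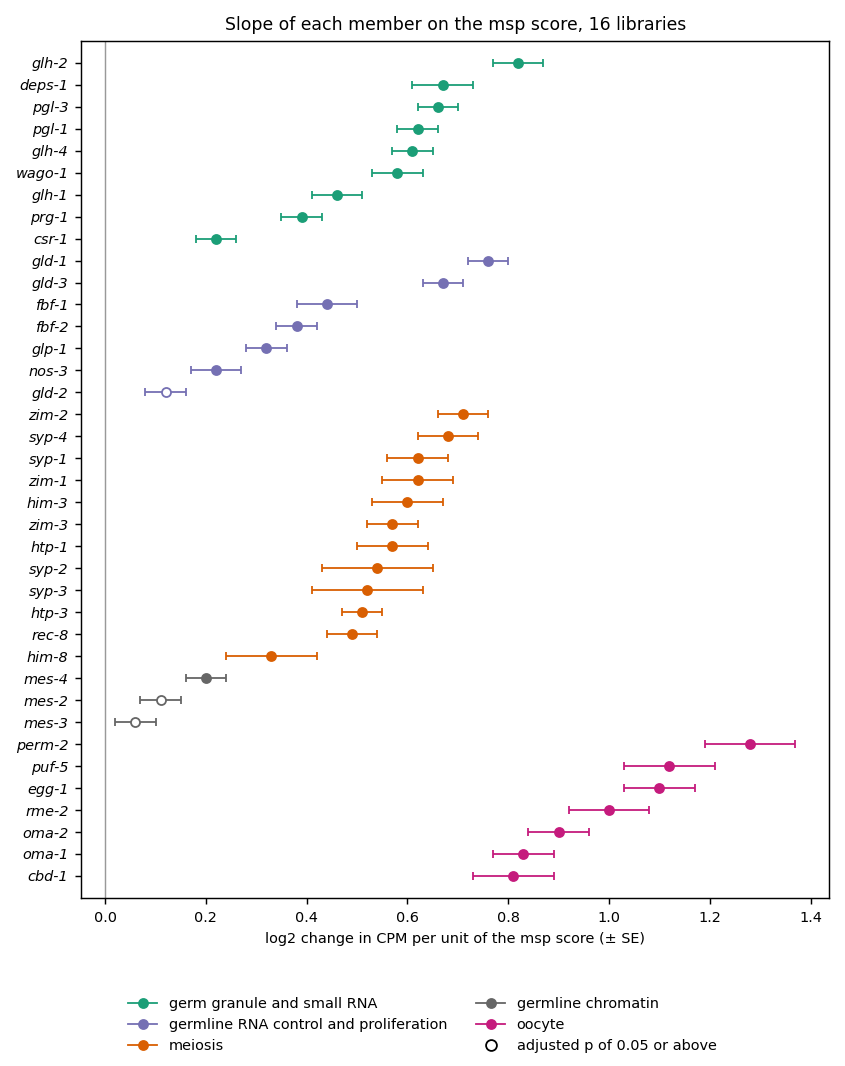
Slope of each of the 38 members on the msp score (log2 change in CPM per unit of score, with its SE) from 16 libraries with strain as a covariate; filled points have an adjusted p under 0.05. Oocyte genes lie between 0.81 and 1.28, and gld-2, mes-2 and mes-3 are the 3 open points.

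These slopes rested on the unstranded strains. Their standard errors and p-values use a spread pooled with the mec-3 strains, whose replicates differed far less. They therefore do not measure the spread between unstranded cultures alone. In the unstranded libraries alone edgeR called 29 members, with 1844 of 15573 genes called, and csr-1, him-8 and mes-4 were among those not called. In the mec-3 strains alone 0 members were called, with 0 of all genes called and 607 at an unadjusted p under 0.05, since their scores hardly differed within a strain. The fitted slopes were then negative for several members, puf-5 among them (−2.99, adjusted p = 0.999). When replicate 1 or replicate 2 of mbl-1(tm1563) was left out 29 members were called, where 12.8% of all genes were called with a positive slope in either case, csr-1, him-8 and mes-4 were not among them, and the slopes of him-8 and glp-1 were 0.53 and 0.51. A test of whether the slope differed between the kinds of library called 0 members and 0.0% of all genes with edgeR. At an unadjusted p under 0.05 were 63 genes, none of them a member, and DESeq2 called 0 genes. The members' standard errors for this difference were 2.99 to 8.28, so a difference as large as the slopes themselves could not be detected. The replicate with the higher score exceeded the other in 38 of 38 members in the wild type and in mbl-1(tm1563), in 37 in mec-7(u278) (all but mes-3) and in 35 in mec-7(u278) mbl-1(tm1563) (all but mes-2, mes-3 and gld-2). Over all genes tested these shares were 58.0%, 63.3%, 51.8% and 48.1%. In the mec-3 strains, whose scores differed by 0.03 or 0.04, the replicate with the higher score exceeded the other in fewer members. These were 24 in mbl-1(tm1563); mec-3(unk206), 15 in mec-3(syb8382), 11 in mec-3(u184) and 12 in mec-3(unk206). The shares of all genes were 47.7%, 49.45%, 52.46% and 44.43% in that order, and the median log2 differences of the members were 0.06, −0.03, −0.04 and −0.15.

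Other genes of the same pathways, from lists of their own, had positive slopes past the threshold in 20 of 26 germ granule and small RNA genes, 28 of 31 meiosis genes, 12 of 19 RNA control genes and 17 of 21 oocyte and eggshell genes, and none of them had a negative slope past the threshold. The embryonic Nanos gene nos-2 (1.42 ± 0.16) and the granule gene meg-1 (1.32 ± 0.17), whose mRNAs are stored in oocytes, had the steepest slopes of these lists. Among markers of other cells, 21 of 24 sperm genes besides msp and 6 of 6 vitellogenin genes, which the adult intestine makes for the oocyte, also had positive slopes past the threshold. The counts past it were 3 of 7 for gonadal sheath and spermatheca markers, 0 of 8 for intestine markers and 0 of 8 for body wall muscle markers. Their part in the members' slopes was not tested. No gene of these lists was at 0 in all 16 libraries.

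Loss of mbl-1 in an otherwise wild-type background left no member past the threshold. edgeR called 0 of 38 members in mbl-1(tm1563) against the wild type, where 0.0% of 14493 genes were called. No member had an unadjusted p under 0.05 (161 genes did) and DESeq2 called 0 members among its 20 genes. gld-1 was at 238 and 13.9 CPM in mbl-1(tm1563) and at 66.2 and 166 CPM in the wild type. The groups overlapped in all 38 members, while 7.99% of all genes were higher in both mbl-1(tm1563) libraries than in both wild-type libraries. Fitted log2 fold changes of the members lay between −0.32 and 0.51 and had standard errors of up to 1.97 (perm-2), so that changes of several-fold were not detectable in this pair of strains. Without replicate 2 of mbl-1(tm1563) 0 members were called as well, with log2 fold changes of 1.35 for rme-2, 0.98 for gld-1 and 1.48 for puf-5. Without replicate 1 they were −3.77, −2.86 and −4.05.

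In the mec-7(u278) background all 38 members had a higher fitted level in the mbl-1 mutant, but none passed the threshold. edgeR called 0 of 38 members in mec-7(u278) mbl-1(tm1563) against mec-7(u278), with 0.0% of 15221 genes called. At an unadjusted p under 0.05 were 9 members and 560 of all genes. DESeq2 called 0 members among its 16 genes. Both libraries of the double mutant were above both libraries of mec-7(u278) in 32 of 38 members, a pattern that 24.6% of all genes tested showed. The 6 others were syp-1, syp-2, syp-3, him-3, fbf-2 and glh-1, which overlapped. perm-2 was at 589 and 272.5 CPM in mec-7(u278) mbl-1(tm1563) and at 172 and 65.0 CPM in mec-7(u278). him-8 was at 38.2 and 15.6 CPM in mec-7(u278) mbl-1(tm1563) and at 11.9 and 5.55 CPM in mec-7(u278). The fitted log2 fold changes were 1.84 ± 0.65 for perm-2, 1.60 ± 0.65 for him-8 and 1.71 ± 0.43 for rme-2 (adjusted p = 0.659 for each). Over the 38 members the median was 1.05, and over all genes it was −0.05. The msp score, at 6.83 and 6.22 in mec-7(u278) mbl-1(tm1563) and at 6.07 and 4.40 in mec-7(u278), moved in the same direction, and the summed level of 24 sperm markers was 840.3 and 581 CPM in mec-7(u278) mbl-1(tm1563) and 549 and 216 CPM in mec-7(u278). The intestine markers summed to 4544 and 11110 CPM in mec-7(u278) mbl-1(tm1563) and to 9290 and 20840 CPM in mec-7(u278). Their part in the difference was not tested.

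The tubulin mutant itself was compared with the wild type. edgeR called 0 of 38 members in mec-7(u278) against the wild type, with 0.0204% of 14710 genes called. At an unadjusted p under 0.05 were 1 member (oma-1) and 1037 of all genes. DESeq2 called 0 members among its 92 genes. Both libraries of mec-7(u278) exceeded both of the wild type in 9 of 38 members (22.2% of all genes), among them 6 of the 7 oocyte genes. puf-5 was at 94.6 and 36.2 CPM in mec-7(u278) and at 4.39 and 34.0 CPM in the wild type. Its fitted log2 fold change was 1.79 ± 0.91 and that of rme-2 was 1.69 ± 0.73, with an adjusted p of 0.562 for each. The call depended on the processing. Without the filter on low counts 5 members were called, puf-5 (adjusted p = 0.0271) and rme-2 (adjusted p = 0.022) among them, with 485 of 21865 genes called. Without replicate 2 of the wild type 7 members were called, all higher in mec-7(u278), where 1.1% of 15638 genes were called higher, and the log2 fold changes were 3.83 for puf-5 and 3.18 for rme-2.

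Most oocyte genes were higher in the mbl-1 mutant of the mec-3(unk206) background. In the comparisons between mec-3 strains the p-values rest on replicates whose msp scores differed by no more than 0.04. They do not measure a spread between cultures such as that of the unstranded strains, where the scores differed by up to 5.16. A difference between strains and one between cultures therefore cannot be told apart. 19 of 38 members were higher in mbl-1(tm1563); mec-3(unk206) than in mec-3(unk206) at an adjusted p under 0.05, where 14.4% of 15042 genes were called higher. No member was called lower, and 22% of all genes were. By role these were 6 of 7 oocyte genes, 5 of 12 meiosis genes, 4 of 9 germ granule genes, 3 of 7 RNA control genes and 1 of 3 chromatin genes. The median log2 fold change of the 38 members was 0.40 and that of all genes tested was −0.01.

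cbd-1 (chromosome IV, 11372991 to 11377627) was at 871 and 1076 CPM in mbl-1(tm1563); mec-3(unk206) and at 457 and 371 CPM in mec-3(unk206). Its log2 fold change was 1.24 ± 0.16 (adjusted p = 1.19e-05). oma-2 (chromosome V, 8029439 to 8031214) was at 288.5 and 288.2 CPM in mbl-1(tm1563); mec-3(unk206) and at 140.1 and 111 CPM in mec-3(unk206), a log2 fold change of 1.20 ± 0.15. The groups did not overlap for either gene. puf-5 was at 479.3 and 479.7 CPM in mbl-1(tm1563); mec-3(unk206) and at 264 and 197 CPM in mec-3(unk206), and its log2 fold change was 1.06 ± 0.15. rme-2 was higher by 1.04 ± 0.15 and egg-1 by 0.93 ± 0.15 on the log2 scale. oma-1, the partner of oma-2, had a smaller change of 0.42 ± 0.15 (adjusted p = 0.0345), which was not past the threshold without replicate 2 of either strain (adjusted p = 0.188 without that of mec-3(unk206) and 0.233 without that of mbl-1(tm1563); mec-3(unk206)). perm-2 was the exception among the oocyte genes, at 565 and 499.5 CPM in mbl-1(tm1563); mec-3(unk206) and at 643 and 589 CPM in mec-3(unk206), with a log2 fold change of −0.21 ± 0.14 that did not pass the test (adjusted p = 0.257).

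In the other groups the changes were smaller. deps-1 was at 156 and 157 CPM in mbl-1(tm1563); mec-3(unk206) and at 99.5 and 90.8 CPM in mec-3(unk206), with a log2 fold change of 0.72 ± 0.14 (adjusted p = 0.00069). glp-1 was higher by 0.59 ± 0.14, him-8 by 0.57 ± 0.16 and mes-4 by 0.53 ± 0.15 on the log2 scale. Of these, him-8 was not called without replicate 1 of either strain, and mes-4 was not called without replicate 2 of either strain. The remaining members called were gld-3, rec-8, zim-2, pgl-3, wago-1, syp-2, zim-1, glh-2 and gld-1, at 0.39 to 0.50. pgl-1 (0.18 ± 0.14) and syp-1 (−0.18 ± 0.14) were among the members not called. Fitted together with the 8 unstranded libraries, which share their spread, 0 members were called by edgeR (2856 of all genes at an unadjusted p under 0.05). DESeq2 on the 4 libraries called 18 members higher, where 1978 of 15042 genes were called higher. With edgeR on the 4 libraries 12 members were called without replicate 2 of mec-3(unk206) and 9 without replicate 2 of mbl-1(tm1563); mec-3(unk206), where 10.9% and 10.1% of all genes were called higher.

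Among the other lists in this comparison, 19 of 21 oocyte and eggshell genes, 16 of 26 germ granule genes, 11 of 19 RNA control genes and 6 of 31 meiosis genes were higher in mbl-1(tm1563); mec-3(unk206). The caveolin gene cav-1, made in oocytes, changed by 2.09 ± 0.27 and the granule genes meg-3 and meg-1 by 1.49 ± 0.17 and 1.40 ± 0.17 on the log2 scale. fog-3, which is needed for the sperm fate, fell to 3.13 and 2.27 CPM in mbl-1(tm1563); mec-3(unk206), against 7.08 and 6.399 CPM in mec-3(unk206). Sperm markers went the other way from the oocyte genes, with 15 of 23 lower, 0 higher and a median of −0.76. The summed level of the 24 sperm markers was 594 and 573.5 CPM in mbl-1(tm1563); mec-3(unk206) and 838 and 807 CPM in mec-3(unk206). Intestine markers were lower in 8 of 8 cases, with sums of 7048 and 5912 CPM in mbl-1(tm1563); mec-3(unk206) and 16470 and 11360 CPM in mec-3(unk206), and vitellogenin genes in 6 of 6. Hypodermis and cuticle markers were higher in 5 of 8 cases and lower in 1, with a median of 0.50. The part of these other cells in the members' changes was not tested.

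The 2 other alleles of mec-3 were compared with mec-3(unk206) and with each other. Each of these comparisons shares libraries with others, and both comparisons with mec-3(unk206) share its libraries with the one above, so the values are given side by side. In mec-3(syb8382) 13 of 38 members were higher than in mec-3(unk206), where 5.49% of 14775 genes were called higher, and none was lower (8.41% of genes). In mec-3(u184) 17 of 38 members were lower than in mec-3(unk206), where 12.4% of 14977 genes were called lower, and none was higher (14.9% of genes). In mec-3(syb8382) against mec-3(u184), strains which share the uIs134 transgene, 37 of 38 members were higher, all but mes-3, where 23.3% of 14827 genes were called higher and 22.7% lower. The median log2 fold changes of the members were 0.27, −0.31 and 0.58 in these comparisons, in that order, and that of all genes did not exceed 0.04 in size in any of them. When all 16 libraries shared 1 estimate of the spread, edgeR called 0 members in each of the 3 comparisons, with 1439, 1216 and 2018 of all genes at an unadjusted p under 0.05. DESeq2 on the libraries compared called 13 members higher, 15 lower and 37 higher. Of all genes it called 767 of 14775, 1336 of 14977 and 2678 of 14827 in the same directions.

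**Figure D4:**
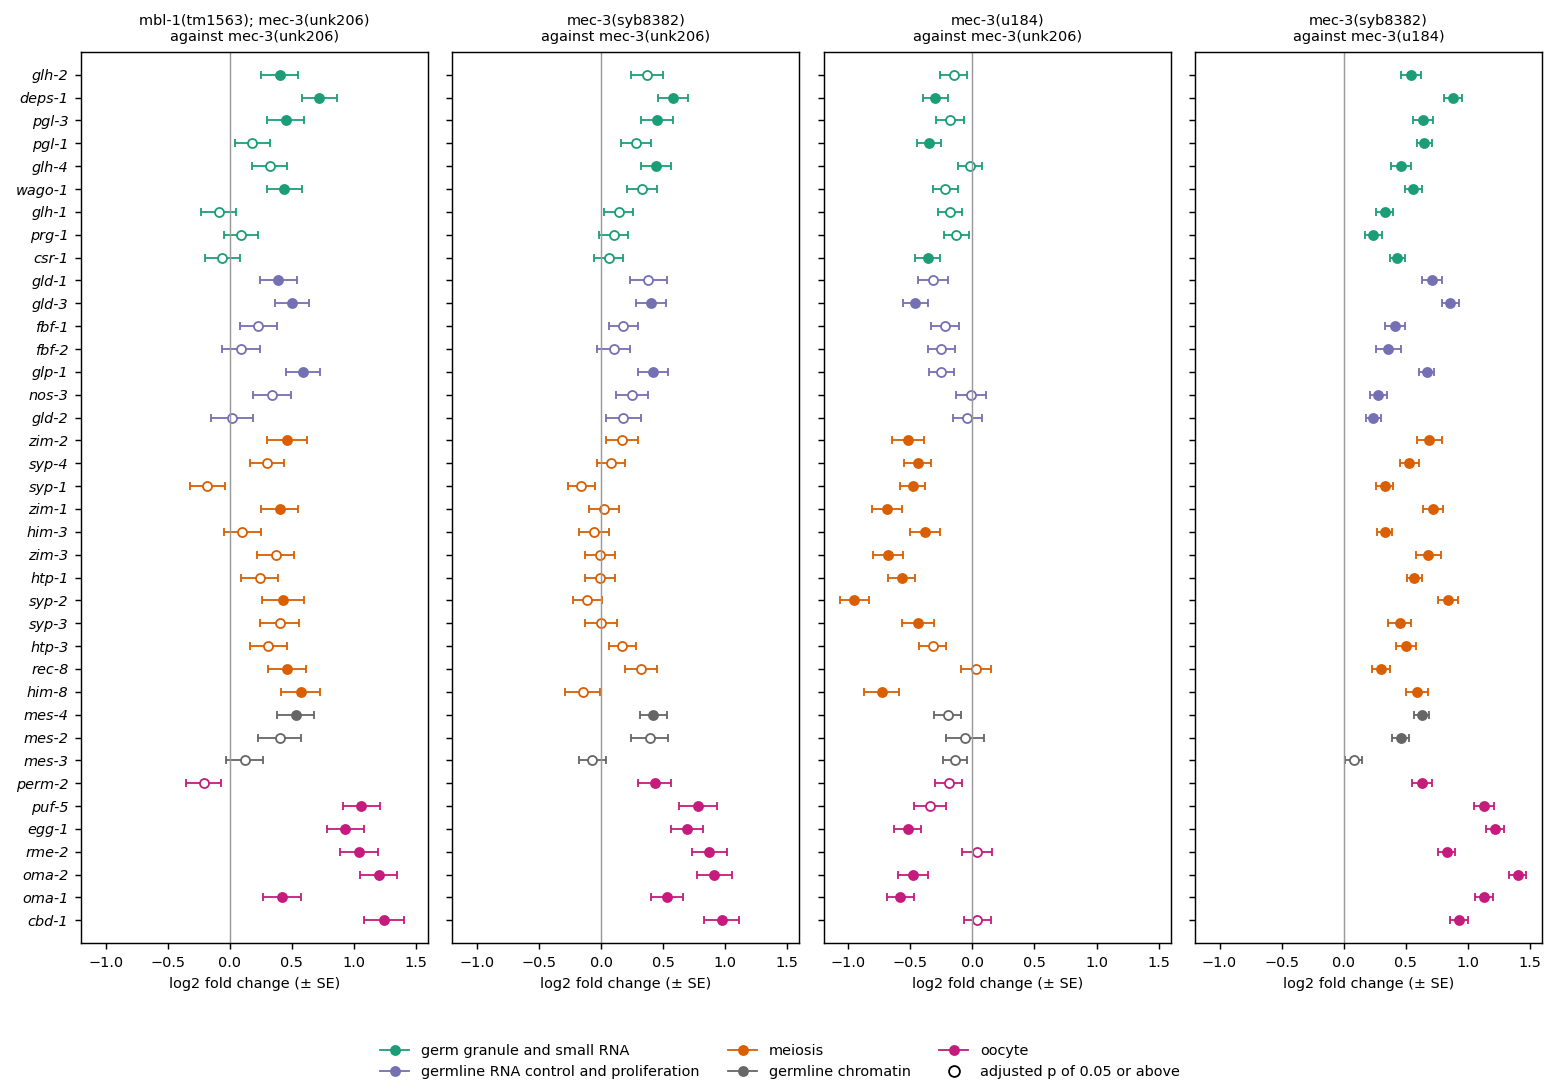
Log2 fold change of each of the 38 members with its SE in 4 comparisons between strand-specific strains (2 libraries against 2 each); filled points have an adjusted p under 0.05 and colours are roles. Oocyte genes other than perm-2 are right of 0 in the first panel and all 7 in the second, meiosis genes other than rec-8 are left of 0 in the third, and all 38 are right of 0 in the last panel.

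Oocyte genes made up 7 of the 13 members higher in mec-3(syb8382) than in mec-3(unk206). cbd-1 was at 815 and 809.9 CPM in mec-3(syb8382) and at 457 and 371 CPM in mec-3(unk206), a log2 fold change of 0.97 ± 0.14 (adjusted p = 0.00265). oma-2 changed by 0.91 ± 0.14, rme-2 by 0.87 ± 0.14 and puf-5 by 0.78 ± 0.15. perm-2, which was not called with the loss of mbl-1, was at 815 and 853 CPM in mec-3(syb8382) and at 643 and 589 CPM in mec-3(unk206) (0.43 ± 0.13, adjusted p = 0.0495). None of the 12 meiosis genes was called by edgeR or by DESeq2, with log2 fold changes between −0.16 and 0.32 and 1 gene (rec-8) at an unadjusted p under 0.05. The other 6 members called were deps-1, pgl-3, glh-4, glp-1, mes-4 and gld-3. The count was 7 without replicate 1 and 5 without replicate 2 of mec-3(syb8382), and 6 without replicate 2 of mec-3(unk206), where 3.32%, 2.13% and 2.52% of all genes were called higher.

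Meiosis genes made up 10 of the 17 members lower in mec-3(u184) than in mec-3(unk206), the exceptions being htp-3 and rec-8. syp-2 was at 16.2 and 16.4 CPM in mec-3(u184) and at 30.3 and 33.0 CPM in mec-3(unk206), and fell by 0.95 on the log2 scale (SE 0.12, adjusted p = 0.000762). him-8 was at 16.1 and 14.7 CPM in mec-3(u184) and at 23.5 and 28.1 CPM in mec-3(unk206) (−0.73 ± 0.14). zim-1 changed by −0.69 ± 0.12. Of the oocyte genes oma-1 (−0.58 ± 0.11), egg-1 (−0.52 ± 0.11) and oma-2 (−0.48 ± 0.12) were lower. rme-2, at 217 and 230.5 CPM in mec-3(u184) and at 247 and 192 CPM in mec-3(unk206), and cbd-1 overlapped between the strains and had log2 fold changes of 0.04 each. The other members called were pgl-1, csr-1, deps-1 and gld-3. Without replicate 1 of mec-3(u184) 6 members were called and without replicate 2 of mec-3(u184) 5 were, where 5.19% and 4.53% of all genes were called lower. The oocyte gene egg-1 and the granule genes pgl-1 and csr-1 were not called without either of them.

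Between mec-3(syb8382) and mec-3(u184) both libraries of mec-3(syb8382) were above both of mec-3(u184) in 38 of 38 members, a pattern that 36.7% of all genes tested showed. oma-2 was at 228 and 246 CPM in mec-3(syb8382) and at 90.5 and 87.2 CPM in mec-3(u184), with a log2 fold change of 1.40 ± 0.07 (adjusted p = 0.000369). egg-1 was at 249 and 268 CPM in mec-3(syb8382) and at 108 and 112 CPM in mec-3(u184) (1.22 ± 0.07). puf-5 and oma-1 each changed by 1.13, deps-1 by 0.88 and syp-2 by 0.84. mes-3 was at 54.7 and 56.2 CPM in mec-3(syb8382) and at 49.8 and 54.04 CPM in mec-3(u184), and did not pass the test (0.08 ± 0.07, adjusted p = 0.345). The msp score was also higher, at 6.82 and 6.78 in mec-3(syb8382) and at 6.35 and 6.39 in mec-3(u184).

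Lists outside the set moved in these comparisons too. In mec-3(syb8382) against mec-3(u184), 30 of 31 other meiosis genes, 25 of 26 other germ granule genes and 19 of 21 other oocyte and eggshell genes were higher. The meiosis list and the oocyte and eggshell list each had 1 gene called lower. Also lower were 8 of 8 intestine markers and 7 of 8 hypodermis and cuticle markers. The sums of the intestine markers were 11090 and 11080 CPM in mec-3(syb8382) and 15710 and 16220 CPM in mec-3(u184). In mec-3(u184) against mec-3(unk206), 21 of 31 other meiosis genes were lower and 1 was higher. Of the other germ granule genes 9 of 26 were lower, and of the other oocyte and eggshell genes 9 of 21, with 1 higher in each list. Higher were 6 of 8 cuticle markers, with a median log2 fold change of 1.65, and 6 of 8 body wall muscle markers. In mec-3(syb8382) against mec-3(unk206), 13 of 21 other oocyte and eggshell genes and 1 of 31 other meiosis genes were higher, and fog-3 changed by −1.21 ± 0.23 on the log2 scale. CPM is a share of the library, so that a change in other tissues enters the level of each member, and the part of these tissues was not tested.

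Whether the loss of mbl-1 acted on the members differently in the 3 backgrounds was tested as an interaction. The mbl-1 effect in mec-7(u278) minus that in the wild type was positive in 38 of 38 members (median 1.13) but passed the threshold in 0. edgeR called 0.0% of 15602 genes, with 0 members and 260 of all genes at an unadjusted p under 0.05. DESeq2 called 0 members among its 4 genes. The effect in mec-3(unk206) minus that in the wild type had a median of 0.38 and likewise passed in 0 members. With edgeR 0.0192% of 15661 genes were called, and 0 members were at an unadjusted p under 0.05. Of the 536 genes that DESeq2 called there, 0 were members. For oma-2 the second difference was 0.97 ± 1.77. Without replicate 1 of mbl-1(tm1563), which leaves the library that stood apart as the sole mbl-1(tm1563) culture, 29 members were called with a positive difference in the second interaction, as were 7.3% of 16141 genes. Without replicate 2 of that strain edgeR called 0 members, 0.0249% of 16069 genes with a positive and 0.622% with a negative difference, with 3031 genes at an unadjusted p under 0.05. These tests set unstranded against strand-specific libraries in the mec-3(unk206) case, and the kind of library cannot be told apart from the background there.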

How the data were processed

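The samples were whole worms of 8 strains grown from bleached eggs and harvested at L4, with 2 libraries per strain sequenced as paired ends on a DNBSEQ platform. The authors aligned the reads with STAR 2.7.10 to WBcel235 and deposited, per library, raw read counts per gene in an unstranded and 2 stranded columns, from uniquely mapped reads. The unstranded column was used for all libraries, because the files of 4 strains held no strand information, although the labels call all libraries strand-specific. Unmapped reads made up 1.09% to 2.86% and multimapping reads 2.47% to 4.25% of a library and were left out. Replicates were biological by the study's methods, and their numbers came from file names.

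Counts were normalised by TMM, filtered with filterByExpr and tested with edgeR 4.0.16 (quasi-likelihood, R 4.3.3) on the 2 libraries of each strain compared, at a Benjamini-Hochberg adjusted p under 0.05 over all genes. Slopes were fitted in 16 libraries on strain and the msp score, without msp genes, and interactions in the strains concerned. CPM values in the text, and in the msp score, use TMM-scaled library sizes over 16 libraries. Alternatives were DESeq2 1.42.0, RLE size factors, no filter, shared fits, the second-strand column, a replicate block and leaving out each library. The scripts were tested on simulated data. Depths of 22296336 to 23180583 assigned reads make counting error small beside the spread between cultures. No gene or promoter sequences were used here.

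The 38 members and the gene lists were chosen with earlier results of these data known. Any member could be named. From each other list up to 3 genes per comparison were eligible, those with the largest absolute log2 fold change or slope among the genes called, beside the genes mutated in the strains. Of 172 genes in the lists, 168 were found.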

Additional observations from a re-analysis of the deposited data

How the results depend on the processing

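For single members, 66 log2 fold changes or slopes gave 963 values under alternatives. Of these, 842 kept their direction and their side of the threshold, 90 lost the threshold, 6 passed it and 25 turned round. The counts of members called are not part of this tally and varied more widely. In mbl-1(tm1563); mec-3(unk206) against mec-3(unk206), 11 members were called without the filter, 0 in 1 fit of all 16 libraries (17 with the msp score) and 9 to 16 when 1 library was left out. In mec-7(u278) against the wild type the count was 5 without the filter and 0 to 7 with 1 library left out. For mec-3(u184) against mec-3(unk206) 0 members were called in 1 fit of all libraries, with or without the msp score, where 66 and 17 of 16074 genes were. For mec-3(syb8382) it was 0 in both shared fits and 5 to 19 with 1 library left out against mec-3(unk206), and 0 and 29 to 37 against mec-3(u184). A shared fit takes its spread from unstranded libraries too, and gave all genes a median log2 fold change of 0.13 (0.15 with the msp score) in mbl-1(tm1563); mec-3(unk206), against −0.01 in the separate fit. The slope count was 0 in strand-specific libraries alone, with 0 of 15345 genes called, and 29 in unstranded ones, with 1844 of 15573 genes called. Replicate numbers pair no samples by design. The correlation of deviations between libraries of the same number was −0.54 to 0.44 over 13756 genes. With the replicate block 11 members were called in mbl-1(tm1563); mec-3(unk206), 20 in mec-3(u184) and 14 in mec-3(syb8382), each against mec-3(unk206). Of all genes 4598 of 15042, 4902 of 14977 and 2989 of 14775 were called there. The block called 37 members in mec-3(syb8382) against mec-3(u184), with 5890 of 14827 genes, and 35 for the slope, with 2806 of 16045 genes. Elsewhere it called 0 members. Under the block the mbl-1(tm1563) log2 fold changes against the wild type were −0.78 for rme-2, −0.83 for gld-1 and −0.61 for puf-5. Without 1 library these 3 lay at −3.77 to 1.95, −2.86 to 0.98 and −4.05 to 2.61. In the shared fit with the msp score, gld-1 was at −0.07 in mbl-1(tm1563) and −0.23 in mec-7(u278) against the wild type, and perm-2 and syp-1 at 0.20 and 0.09 in mbl-1(tm1563); mec-3(unk206). With 1 library left out of the separate fit, rme-2 and cbd-1 in mec-3(u184) against mec-3(unk206) lay at −0.11 to 0.20 and −0.08 to 0.17. In strand-specific libraries alone the slopes were −2.99 (puf-5), −3.59 (perm-2), −2.75 (egg-1), −1.58 (oma-1), −2.87 (oma-2), −2.04 (gld-1), −2.30 (glh-2), −1.70 (csr-1), −1.21 (him-8) and −1.53 (mes-2). Where no cause is given, the cause was not tested.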

Other observations

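Yolk protein genes did not follow the oocyte genes in all comparisons of the mec-3 strains. The 6 vitellogenin genes summed to 18770 and 19460 CPM in mbl-1(tm1563); mec-3(unk206), where 5 of the 7 oocyte members (all but oma-1 and perm-2) had their highest library, to 46040 and 55170 CPM in mec-3(syb8382), to 51240 and 43550 CPM in mec-3(u184) and to 41130 and 34210 CPM in mec-3(unk206). In mec-3(syb8382) against mec-3(unk206) 4 of the 6 were called higher, where 5.49% of all genes were. Their median log2 fold change there was 0.73 and that of the 7 oocyte members was 0.78. In mec-3(syb8382) against mec-3(u184) the log2 fold changes of the vitellogenin genes lay between −0.01 and 0.13, and those of the members between 0.08 and 1.40. fog-3, a gene of the sperm fate, had its highest levels in mec-3(unk206), at 7.08 and 6.399 CPM, and was at 3.13 and 2.27 CPM in mbl-1(tm1563); mec-3(unk206), 3.51 and 2.33 CPM in mec-3(syb8382) and 3.51 and 3.63 CPM in mec-3(u184).

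pqn-74, taken into the oocyte and eggshell list, behaved unlike the rest of it. It was at 59.6 and 29.8 CPM in mec-3(u184), against 6.05 and 6.32 CPM in mec-3(unk206), a log2 fold change of 2.87 ± 0.29, and its cultures of mbl-1(tm1563) held 457 and 15.2 CPM.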
